A study of Mus musculus with 15 samples.

Results

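Interferon-stimulated and RNA-sensing genes were followed in mouse testis: 39 genes of interferon signalling, antiviral effectors and double-stranded RNA sensors, of 50051 annotated features. They were chosen by name from knowledge of the pathway, with earlier results of these data known, and each name matched 1 gene. The samples were testes at postnatal day 28 of B6D2F1 mice, an F1 hybrid background, in a study of mice without the pachytene piRNAs of chromosome 18. Strand-specific total RNA after ribosomal depletion was sequenced from 3 libraries labelled Chr18+/+ (wild type), 3 labelled Chr18+/- (heterozygous, called a control in the labels) and 3 labelled Chr18-/- (homozygous knockout). Small RNA was sequenced from 3 Chr18+/- and 3 Chr18-/- libraries after a periodate treatment that keeps RNAs with a protected 3′ end, such as piRNAs. How the allele was made is not given in the sources used here. Whether the replicates are different animals is not stated in the labels, so the spread behind each p-value may be partly technical.

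Cells detect viral or endogenous double-stranded RNA with sensors such as MDA5 (Ifih1), LGP2 (Dhx58), PKR (Eif2ak2) and ZBP1, while the editing enzyme ADAR1 (Adar) marks the cell's own duplex RNA. Sensing by RIG-I-like receptors runs through MAVS and TBK1 to the interferon genes, and secreted interferon acts through its receptors, JAK kinases and factors such as STAT2 and IRF9 on genes that carry interferon-stimulated response elements. The testis shelters germ cells from immune cells, and pachytene piRNAs arise there from long precursors in meiotic and haploid germ cells, where PIWI proteins use them to silence RNA.

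Some interferon-responsive promoters carry a known run of letters, and stretches that match it are shown for some of the members. The RefSeq table of promoters (GRCm38.p6, 250 bases before to 50 after the start of transcription) held 29 of the 39 members. The letters GAAANNGAAA, on either strand, lay in 11 of these 29 members (37.9%, exact 95% interval 20.7 to 57.7%) and in 3.99% of the 27025 genes in the table. The looser letters GAAANNGAA, which include every match of the longer form, lay in 15 of 29 members (51.7%) and in 9.76% of all genes, and TTCNNNGAA, a palindromic interferon element, in 8 of 29 (27.6%) and 9.55%. The members were chosen as genes of the interferon pathway, so the higher shares may reflect that choice and are no test. The interval treats the members as a random draw, which they are not. A match is a run of letters in a window and no measured site. In the 30-base windows below, written 5′ to 3′ on the strand of the gene, capitals mark the match. A match on the other strand appears as its reverse complement, and the Ifi44 line shows the looser form.
Ifih1: gagaagagaatcGAAACAGAAAccgatctg
Eif2ak2: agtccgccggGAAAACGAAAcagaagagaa
Stat2: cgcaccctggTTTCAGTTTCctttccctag
Isg15: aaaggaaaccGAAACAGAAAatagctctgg
Oas1a: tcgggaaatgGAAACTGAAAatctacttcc
Ifit1: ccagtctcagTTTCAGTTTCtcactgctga
Ifit3: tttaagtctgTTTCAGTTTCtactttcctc
Ifit3b: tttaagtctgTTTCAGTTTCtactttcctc
Ifi44: aaagtttctcTTCATTTTCtacaggcttgg
The windows lie at chr2:62646206-62646235 on the minus strand (Ifih1), chr17:78882535-78882564 minus (Eif2ak2), chr10:128270266-128270295 plus (Stat2), chr4:156200865-156200894 minus (Isg15), chr5:120907520-120907549 minus (Oas1a), chr19:34640794-34640823 plus (Ifit1), chr19:34583397-34583426 plus (Ifit3), chr19:34607793-34607822 plus (Ifit3b) and chr3:151749894-151749923 minus (Ifi44). The Ifit3 and Ifit3b windows are identical, and reads of these neighbouring copies may not be separable. Isg15 held 3 overlapping matches of the longer form, and Oas1a, Ifit1, Ifit3 and Ifit3b held 2 each, with 1 shown per gene. The Ifih1 match begins at base 33 after the start and the Eif2ak2 match at base 19, the others before it. Dhx58, Usp18, Rtp4, Zbp1, Mx1, Mx2, Oas2, Ifi27, Parp9 and Parp14 have no entry in the table. Herc6 held none of these letters in its window. Bst2, Oas3 and Rsad2 held the longer form and Adar, Samd9l and Trim25 only the looser form, and their windows are not shown.

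Values are counts over whole gene bodies, introns included, given as CPM, counts scaled to a common library size. RNA-seq totals ran from 21684791 to 41513634 counts per library. The chromosome 18 precursor 18_qE1_36451_1 averaged 273, 163 and 0.156 CPM in wild type, heterozygotes and homozygotes, so each library matched its label. Replicates differed by more than sampling noise (chi-square per degree of freedom 3.12 to 50.7), and wild type 1 and heterozygous 1 stood furthest from the others of their groups. A fragment in 2 genes of the same strand was not counted, which touches 53.8% of the Herc6 gene body, 42.4% of Rtp4 and 1.9% of Irf9, and no other member. Germ cell markers were abundant, and summed CPM of 10 elongating spermatid markers was 14300 to 14900 in wild type, 4660 to 12100 in heterozygotes and 7920 to 10800 in homozygotes. Summed Leydig cell markers were 1030 to 1150, 460 to 605 and 423 to 575 CPM, and summed spermatocyte markers 2260 to 2330, 2280 to 2730 and 2410 to 2710. Fewer cells of a type and less RNA per cell cannot be told apart in whole testis.

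The 39 members together summed to 211 to 215 CPM in wild type, 211 to 216 in heterozygotes and 214 to 236 in homozygotes, and these ranges overlap. Dhx58 and Herc6 made up 32.0 to 40.9% of the sum and moved in opposite directions, with means of 45.9 and 28.0 CPM for Dhx58 and 38.0 and 51.3 for Herc6 in wild type and homozygotes, so the sum does not show the changes of single genes. Without these 2 genes, left out after their values were seen, it was 127 to 132 CPM in wild type, 129 to 144 in heterozygotes and 139 to 153 in homozygotes. Homozygotes then lay above wild type without overlap, as did 20.6% of all features tested singly. Dhx58, the only member called lower, is 1 of the 2 left out, so this separation is a description only. Per kilobase of gene body, the level was highest for Dhx58 (3.57 CPM per kb), followed by Ifi27 (2.24), Bst2 (0.871) and Irf9 (0.804), and lowest for Oas3 (0.00287). A low-count filter left 35 of 39 members among 20782 features tested. Oas1a, Oas3, Isg15 and Ifit3b were not tested, with 0 to 15 counts per library. Of the members tested, 1, Ifi44, had no wild-type library over the filter's level (0.349 CPM) and passed only through the mutant libraries.

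In homozygotes against wild type, 5 of 35 members tested passed an adjusted p of 0.05 (14.3%), against 20.8% of all features (9.68% higher, 11.1% lower). Ifih1, Usp18, Herc6 and Rtp4 rose and Dhx58 fell. In heterozygotes against wild type, Ifi44 (higher) and Dhx58 (lower) passed, 2 of 35 (5.71%), against 23.9% of all features. Ifi44 passed the low-count filter only through the mutant libraries. Its place in this count, and in the unadjusted counts against wild type below, is no support. In homozygotes against heterozygotes no member passed with edgeR or with DESeq2, against 0.0289% of all features (6 features, 0.0144% in each direction), and Usp18 and Irf7 had an unadjusted p under 0.05, against 3.07% of features. At an unadjusted p under 0.05 there were 10 members of 35 in homozygotes (28.6%, against 35.7% of all features) and 5 in heterozygotes (14.3%, against 37.8%) compared with wild type. The share of members called was thus no higher than that of all features in either comparison with wild type, and both use the same wild-type libraries. Many members had few counts, and the difference between these shares was not tested.

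Dhx58 encodes LGP2, a helicase of the RIG-I family that lacks signalling domains and modulates MDA5 and RIG-I. The gene lies at chr11:100694884-100704271 on the minus strand (mm10, whole gene body counted). Dhx58 was counted 1838, 1061 and 923 times in the wild-type libraries, 1228, 761 and 758 times in the heterozygous and 897, 798 and 634 times in the homozygous ones. That is 56.7, 39.2 and 42.0 CPM in wild type, 28.1, 25.4 and 26.1 in heterozygotes, with 31.8, 27.9 and 24.4 in homozygotes. Every mutant library lay below every wild-type library, and the mutant genotypes overlapped each other. The log2 fold change was -0.71 (SE 0.14, adjusted p = 0.00627, edgeR) in homozygotes and -0.79 (SE 0.14, adjusted p = 0.00399) in heterozygotes against wild type, and 0.08 (SE 0.14, adjusted p = 1) between the mutants. Both calls against wild type held in each of 17 other settings, including every library left out, at -0.82 to -0.52 in homozygotes and -0.90 to -0.61 in heterozygotes. Elongating spermatid and Leydig markers were lower in the same libraries, and their part in this result was not tested.

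Ifih1 encodes MDA5, the sensor of long double-stranded RNA (chr2:62595798-62646255, minus strand). Ifih1 was counted 125, 119 and 95 times in the wild-type libraries, 255, 164 and 157 times in the heterozygous and 178, 236 and 150 times in the homozygous ones. The levels were 3.85, 4.40 and 4.32 CPM in wild type, 5.83, 5.48 and 5.40 in heterozygotes, with 6.30, 8.25 and 5.77 in homozygotes. All 6 mutant libraries lay above the 3 wild-type ones, and homozygous 2 was the highest. The log2 fold change was 0.70 in homozygotes against wild type (SE 0.16, adjusted p = 0.011, edgeR), and without homozygous 2 it was 0.53 with adjusted p = 0.0518. In heterozygotes it was 0.41 (SE 0.16, adjusted p = 0.0726), and between the mutants 0.28 (SE 0.15, adjusted p = 1). Ifih1 and Dhx58, partners on the same RNA, thus moved in opposite directions in homozygotes.

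The other 4 sensors and partners did not pass in any comparison. Eif2ak2 encodes PKR, the kinase that halts translation on double-stranded RNA; its counts were 342, 374 and 308, then 638, 408 and 428, then 386, 417 and 392 in wild type, heterozygotes and homozygotes. These are 10.5, 13.8 and 14.0 CPM, then 14.6, 13.6 and 14.7, then 13.7, 14.6 and 15.1, with a log2 fold change of 0.18 (SE 0.12, adjusted p = 0.319) in homozygotes against wild type. Wild type 1 had the lowest Eif2ak2 level of the 9 libraries. Adar encodes the enzyme that edits adenosine in duplex RNA; its counts were 516, 409 and 311, then 718, 472 and 484, then 482, 488 and 422, or 15.9, 15.1 and 14.1 CPM, then 16.4, 15.8 and 16.6, then 17.1, 17.1 and 16.2. The homozygous Adar libraries lay just above wild type, by 0.16 on the log2 scale (SE 0.09, adjusted p = 0.257). Trim25 encodes a ubiquitin ligase of the RIG-I pathway; its counts were 338, 277 and 254, then 372, 315 and 281, then 276, 255 and 239, or 10.4, 10.2 and 11.6 CPM, then 8.51, 10.5 and 9.66, then 9.77, 8.92 and 9.20. Trim25 was at -0.21 (SE 0.12, adjusted p = 0.238) in homozygotes against wild type, where the groups did not overlap. Zbp1 encodes a Z-form nucleic acid sensor that can trigger cell death; it had 11, 16 and 7 counts, then 23, 20 and 10, then 16, 9 and 14, or 0.339, 0.591 and 0.318 CPM, then 0.526, 0.668 and 0.344, then 0.567, 0.315 and 0.539. Its groups overlapped (0.18, SE 0.39, adjusted p = 0.782 in homozygotes against wild type), and the opposite strand of Zbp1 held 128% of its counts on the kit strand. In heterozygotes against wild type the log2 fold change was 0.17 for Eif2ak2, 0.11 for Adar, -0.17 for Trim25 and 0.30 for Zbp1, with adjusted p of 0.325 to 0.6.

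**Figure D1:**
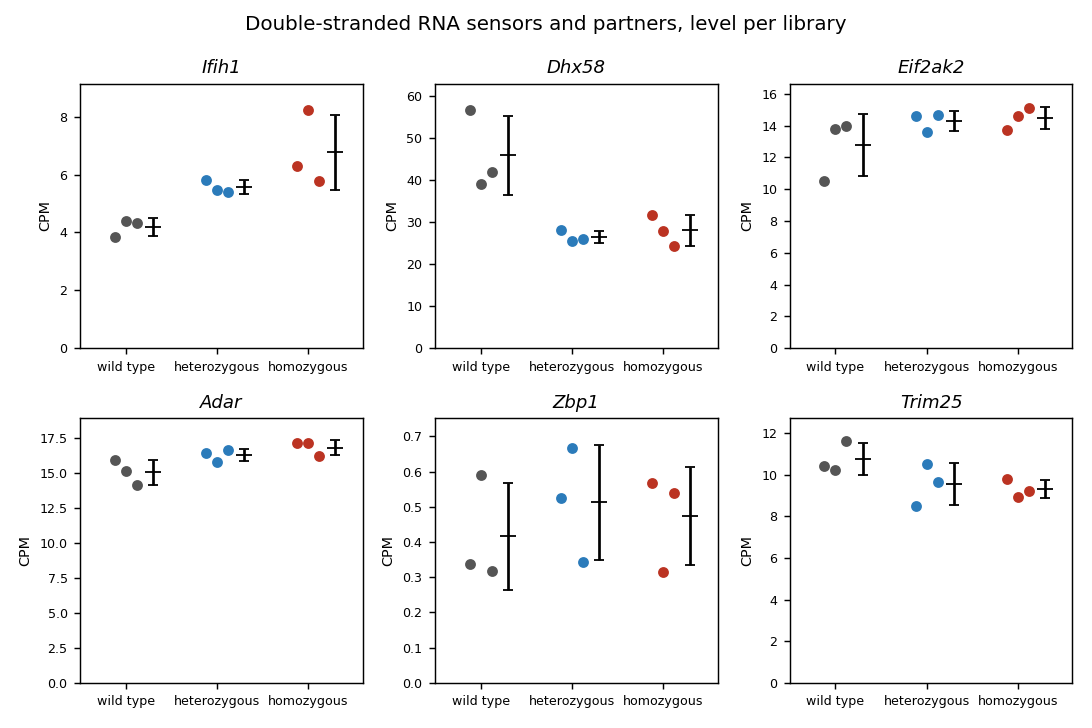
Level of 6 double-stranded RNA sensors and partners in CPM (vertical axis, from 0) by genotype; points are libraries, and the bar beside them is the mean with its SD over 3 libraries. Dhx58 lies at 24.4 to 31.8 CPM in the mutants and at 39.2 to 56.7 in wild type, while Ifih1 lies at 5.40 to 8.25 in the mutants and at 3.85 to 4.40 in wild type.

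The OAS family includes the enzymes that make the 2′-5′ oligoadenylates that activate RNase L, and no member passed. Oas2, Oasl1 and Oasl2 were tested, with log2 fold changes of 0.41, -0.15 and -0.03 in homozygotes and 0.04, -0.64 and -0.38 in heterozygotes against wild type (adjusted p 0.423 to 0.934 and 0.239 to 0.944). Oasl2 was the most abundant of them per kilobase (0.237 CPM per kb) and ranged from 2.17 to 5.00 CPM over the 9 libraries. Oas1a had 5, 5 and 3 counts in wild type, 15, 13 and 8 in heterozygotes, with 5, 5 and 4 in homozygotes. The heterozygous Oas1a libraries, at 0.275 to 0.434 CPM, lay above all 6 others, at 0.136 to 0.185, but the counts were too few for the test.

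Among the transcription factors that carry the interferon signal to DNA, Irf1, Irf7, Irf9 and Stat2 all lay above 0 in homozygotes against wild type (0.26 to 0.47) and none passed. Irf7, the regulator that amplifies interferon production, stood at 2.00, 1.59 and 1.86 CPM in wild type, 1.28, 2.31 and 1.34 in heterozygotes, with 2.69, 2.48 and 2.39 in homozygotes. The 3 homozygous Irf7 libraries lay above the other 6, at a log2 fold change of 0.63 over heterozygotes (SE 0.24, unadjusted p = 0.022, adjusted p = 1) and 0.47 over wild type (SE 0.24, adjusted p = 0.185). The opposite strand of Irf7 held 31.8% as many counts as the kit strand. Stat2, a subunit of the ISGF3 complex, stood at 5.82 to 6.17 CPM in wild type, 6.63 to 6.98 in heterozygotes and 6.66 to 8.11 in homozygotes. Both mutant ranges of Stat2 lay above wild type, with adjusted p = 0.117 in homozygotes (0.29, SE 0.12) and 0.287 in heterozygotes (0.19, SE 0.12). Irf9, the DNA-binding partner of Stat2, was at 0.27 (SE 0.14, adjusted p = 0.193) in homozygotes.

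Of the genes around ISG15, a ubiquitin-like modifier, the protease gene and the ligase gene rose in homozygotes. Usp18 encodes the protease that removes ISG15 and restrains signalling at the interferon receptor (chr6:121245906-121270917, plus strand). Usp18 was counted 26, 19 and 23 times in the wild-type libraries, 33, 35 and 28 times in the heterozygous and 44, 51 and 38 times in the homozygous ones. Its levels were 0.802, 0.702 and 1.05 CPM, then 0.755, 1.17 and 0.963, then 1.56, 1.78 and 1.46. The 3 homozygous libraries lay above the other 6, and heterozygotes overlapped wild type. The log2 fold change of Usp18 was 0.93 over wild type (SE 0.26, adjusted p = 0.0257) and 0.75 over heterozygotes (SE 0.25, unadjusted p = 0.0102, adjusted p = 1). The call over wild type was lost without wild type 1 (adjusted p = 0.072), wild type 2 (0.0909), homozygous 2 (0.0898) or homozygous 3 (0.0573). It was lost too with both strands summed (0.54, adjusted p = 0.0921), where genes on the opposite strand overlap 62.8% of its body. The opposite strand of Usp18 held 71.7% as many counts as the kit strand, against 8.81 to 10.7% over whole libraries.

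Herc6 encodes the mouse ligase that attaches ISG15 (chr6:57581000-57664632, plus strand). Herc6 was counted 1013, 1138 and 897 times in the wild-type libraries, 2111, 1262 and 1639 times in the heterozygous and 1343, 1577 and 1330 times in the homozygous ones. The levels were 31.2, 42.0 and 40.8 CPM, then 48.3, 42.2 and 56.3, then 47.6, 55.1 and 51.2. Both mutant groups lay above wild type, heterozygous 2 by a margin of 42.2 against 42.0 CPM. The log2 fold change was 0.43 in homozygotes (SE 0.13, adjusted p = 0.0371) and 0.37 in heterozygotes (SE 0.13, adjusted p = 0.062). The homozygous call was lost without wild type 1 (0.31, adjusted p = 0.102), wild type 3 (0.058), homozygous 2 (0.128) or homozygous 3 (0.0958). It was lost too with library size as the only scaling (0.47, adjusted p = 0.0544). The heterozygous value passed without heterozygous 2 (0.46, adjusted p = 0.0338), with DESeq2 (0.0471) and with no filter on low counts (0.0298). Isg15 itself had 2 to 11 counts per library and its 3 groups overlapped, with 11 in homozygous 2.

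The IFIT proteins bind viral RNA ends. Ifit1, Ifit2 and Ifit3 lay above wild type without overlap in homozygotes, by 0.69 (SE 0.30), 0.51 (SE 0.24) and 0.70 (SE 0.28) on the log2 scale, with adjusted p of 0.117, 0.154 and 0.0999. Ifit3 stood at 0.647, 0.591 and 0.910 CPM in wild type, 0.595, 1.04 and 0.894 in heterozygotes, with 1.13, 1.12 and 1.19 in homozygotes. The homozygous Ifit3 libraries were the 3 highest. In heterozygotes Ifit2 was at 0.60 (SE 0.24, adjusted p = 0.0867), and without wild type 3 it passed (0.85, adjusted p = 0.0373). Ifit3b had 2 to 11 counts per library, with overlapping groups.

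Rtp4 was the only one of 7 other antiviral effectors to pass in any comparison. It encodes a receptor transporting protein that binds viral RNA (chr16:23520291-23614222, plus strand). Rtp4 was counted 41, 21 and 20 times in the wild-type libraries, 66, 35 and 46 times in the heterozygous and 61, 54 and 40 times in the homozygous ones. The levels were 1.26, 0.776 and 0.910 CPM, then 1.51, 1.17 and 1.58, then 2.16, 1.89 and 1.54. Homozygotes lay above wild type, and heterozygotes overlapped both. The log2 fold change was 0.91 (SE 0.25, adjusted p = 0.0269) in homozygotes and 0.52 (SE 0.26, adjusted p = 0.159) in heterozygotes. The call was lost without wild type 2 (0.76, adjusted p = 0.0977), wild type 3 (0.0779), homozygous 1 (0.0783) or homozygous 2 (0.0753).

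Mx2, a dynamin-like antiviral GTPase, stood at 1.79 to 1.96 CPM in wild type, 1.70 to 2.72 in heterozygotes and 2.38 to 3.29 in homozygotes (0.59, SE 0.22, adjusted p = 0.0735 in homozygotes). Its relative Mx1 was at -0.39 (SE 0.27, adjusted p = 0.316), with 39.4% as many counts on the opposite strand. The remaining 4, Rsad2, Cmpk2, Bst2 and Samd9l, lay between -0.15 and 0.53 in homozygotes. Bst2, the tether that holds budding virions at the cell surface, was 2.85 to 3.26 CPM in homozygotes and 1.85 to 2.74 in wild type (0.44, SE 0.25, adjusted p = 0.231).

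Ifi44, an interferon-induced gene (chr3:151730922-151749960, minus strand), had few counts in every library. Because it passed the low-count filter only through the mutant libraries, where it is higher, its values against wild type are a description and its call is no support. Ifi44 was counted 8, 6 and 7 times in the wild-type libraries, 25, 14 and 29 times in the heterozygous and 19, 14 and 13 times in the homozygous ones. The levels were 0.247, 0.222 and 0.318 CPM, then 0.572, 0.468 and 0.997, then 0.673, 0.489 and 0.500. All 6 mutant libraries lay above wild type, and heterozygous 3 was the highest. The log2 fold change was 1.36 in heterozygotes (SE 0.38, adjusted p = 0.024) and 1.09 in homozygotes (SE 0.40, adjusted p = 0.0696), with -0.27 (SE 0.34, adjusted p = 1) between the mutants. The heterozygous call was lost without wild type 1 (1.32, adjusted p = 0.0762), wild type 2 (0.0749) or heterozygous 3 (1.01, adjusted p = 0.091), and the homozygous value passed without heterozygous 3 (adjusted p = 0.044). Ifi35, Ifi27 and Xaf1 were at 0.01, 0.20 and 0.39 in homozygotes, with overlapping groups and adjusted p of 0.319 to 0.979.

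**Figure D2:**
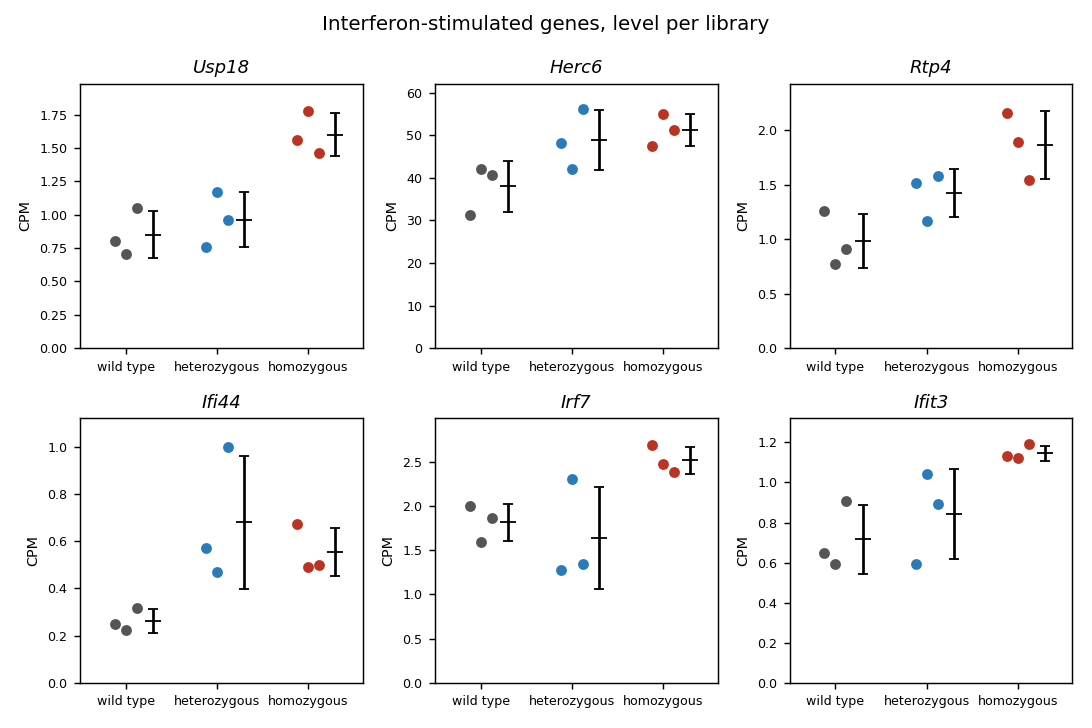
Level of 6 interferon-stimulated genes in CPM (vertical axis, from 0) by genotype; points are libraries, and the bar beside them is the mean with its SD over 3 libraries. Usp18, Irf7 and Ifit3 have their 3 homozygous libraries above the other 6, while for Ifi44 and Herc6 both mutant genotypes lie above wild type. Of all features, 20.6% of homozygous and 20.5% of heterozygous groups lay above wild type without overlap, and 3.86% of homozygous groups above heterozygotes. Members that lay lower in homozygotes than in wild type, such as Mx1 and Oasl1, are not drawn here. Ifi44 passed the low-count filter only through the mutant libraries and is no support.

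The PARP9, PARP14 and DTX3L genes encode ADP-ribosyltransferases and a ubiquitin ligase that pairs with PARP9. They lay at 0.09 to 0.33 in homozygotes and at -0.16 to 0.17 in heterozygotes against wild type, and none passed. Tap1, Psmb8 and Psmb9, which cut and transport peptides for MHC class I, lay at 0.00 to 0.36 and at -0.15 to 0.49, and none passed. Psmb8, an immunoproteasome subunit, was 1.45 to 1.71 CPM in homozygotes and 1.14 to 1.33 in wild type, without overlap (0.36, SE 0.22, adjusted p = 0.268).

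**Figure D3:**
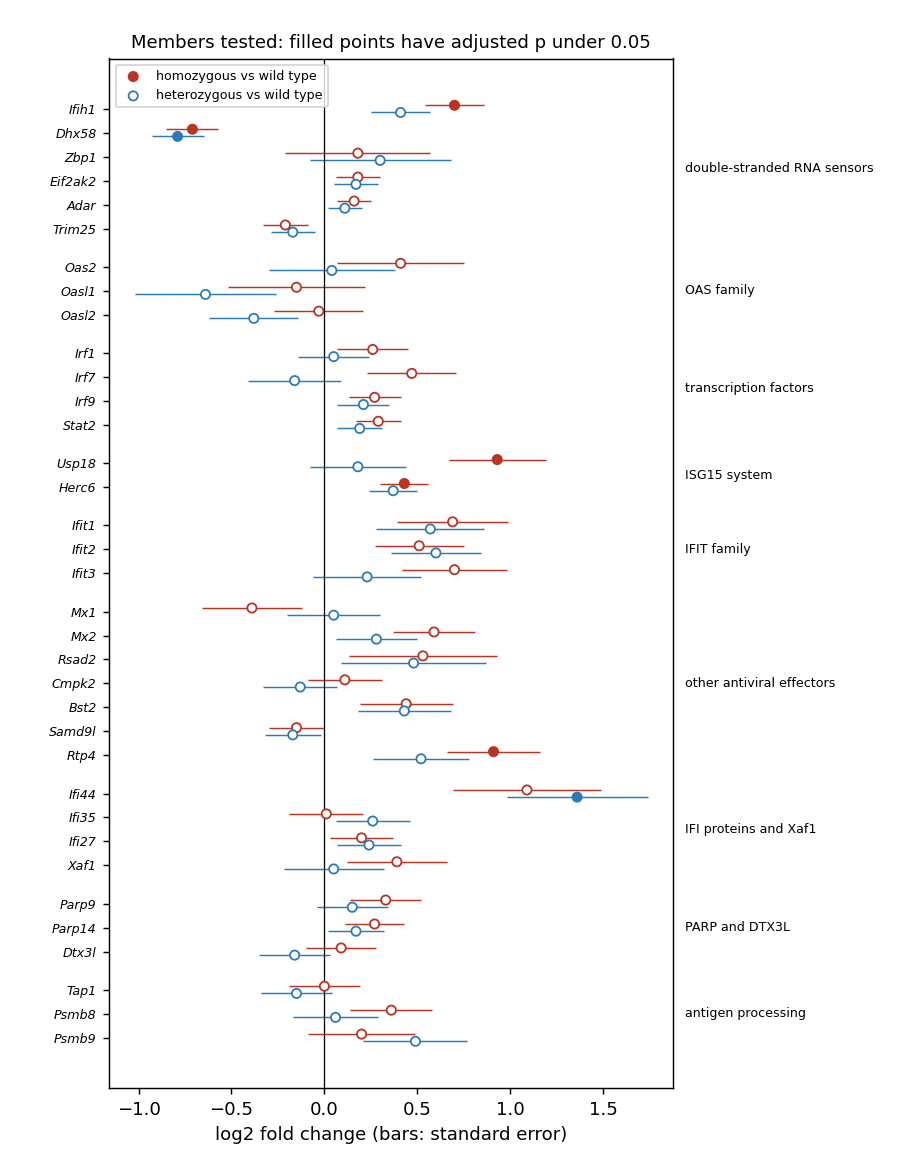
Log2 fold change of the 35 members tested (horizontal axis, bars are the standard error) by role, for homozygotes and heterozygotes against the same wild-type libraries; filled points have an adjusted p under 0.05. Filled points lie to the right for Ifih1, Usp18, Herc6 and Rtp4 in homozygotes and Ifi44 in heterozygotes, and to the left for Dhx58 in both. Ifi44 passed the low-count filter only through the mutant libraries, so its filled point is no support.

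The members' small differences leaned upward. In homozygotes against wild type, 28 of 35 members tested had a log2 fold change above 0, with a median of 0.27, against 48.5% of all features and a median of -0.01. In heterozygotes against wild type it was 26 of 35 with a median of 0.17, against 49.8% and 0. Between homozygotes and heterozygotes it was 27 of 35 with a median of 0.10, against 51.9% and 0.01. In homozygotes, 15 members lay above wild type without overlap of libraries, 42.9% of those tested against 20.6% of all features, and 3 lay below (Dhx58, Trim25 and Samd9l; 8.57% against 22%). In heterozygotes 4 lay above (11.4% against 20.5%) and Dhx58 lay below (21.6% of all features did). Homozygotes lay above heterozygotes without overlap for Irf7, Usp18 and Ifit3 (8.57% against 3.86%), and no member tested lay below (4.45% of all features did). Ifi44, which passed the filter only through the mutants, is among the members counted above wild type. These counts describe the members and carry no test of the module.

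**Figure D4:**
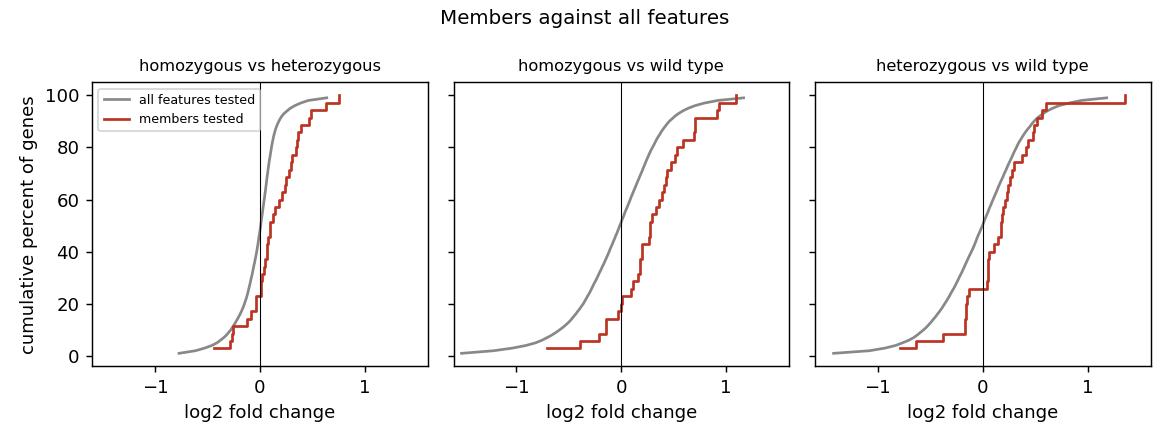
Cumulative percent of genes (vertical axis) by log2 fold change (horizontal axis) in the 3 comparisons, for the 35 members tested and for all 20782 features tested (drawn from the 1st to the 99th percentile). The curve of the members lies to the right of that of all features over most of its length, with medians of 0.10, 0.27 and 0.17 against 0.01, -0.01 and 0.

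Other genes of the pathway, upstream of the members or also interferon-stimulated, were listed from textbook knowledge, with earlier results of these data known. Of 10 interferon ligands, 7 were listed at 0 in all 9 libraries, among them Ifnb1 and the 4 Ifna genes listed; 1 of the 7, Ifnl2, lies wholly under another gene of its strand and could not be counted. Ifnk had 0 to 7 counts per library, and Ifng and Ifnl3 at most 2. The receptor genes Ifnar1 and Ifnar2 did not pass: Ifnar1 was 29.2 to 33.0 CPM in wild type, 29.3 to 30.9 in heterozygotes and 30.7 to 37.6 in homozygotes (adjusted p = 0.224 in homozygotes), and Ifnar2, 42.3% of whose body overlaps another gene, was at -0.26 (adjusted p = 0.245). Among 9 receptor and kinase genes tested, 2 rose in homozygotes and 2 in heterozygotes, and none fell (median -0.12 and -0.16). That is 22.2% in each genotype, near the 20.8% and 23.9% of all features. They were Jak2 and Jak1, the kinases bound to the receptors. Jak2 stood at 18.5 to 19.6 CPM in wild type, 23.0 to 28.7 in heterozygotes and 24.4 to 30.3 in homozygotes (0.49 and 0.55, adjusted p = 0.012 and 0.00816). Jak1 stood at 74.2 to 80.2, 90.7 to 97.9 and 90.7 to 104 CPM (0.30 and 0.35, adjusted p = 0.0251 and 0.0154). The Jak1 calls were lost without wild type 2 (adjusted p = 0.0614 in homozygotes and 0.085 in heterozygotes), wild type 3 (0.0545 and 0.0764), homozygous 2 (0.0753), homozygous 3 (0.0549) or heterozygous 3 (0.0758).

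Of 17 sensing and signalling genes tested, 2 rose and 1 fell in each mutant genotype against wild type (median 0.15 in homozygotes and 0.05 in heterozygotes). That is 17.6% in each, near the 20.8% and 23.9% of all features. Tbk1, the kinase that activates IRF3, stood at 18.4 to 20 CPM in wild type, 24.5 to 29.0 in heterozygotes and 25.6 to 27.2 in homozygotes. Its mutant groups lay above wild type and overlapped each other, and both calls held in all 17 other settings (0.49, adjusted p = 0.00537 and 0.46, adjusted p = 0.0077). Nlrc5, an activator of MHC class I genes, fell: 4.56, 7.46 and 8.82 CPM in wild type, 3.27, 4.28 and 2.85 in heterozygotes, with 3.15, 1.96 and 2.54 in homozygotes. Its log2 fold change was -1.44 in homozygotes (SE 0.26, adjusted p = 0.00459) and -0.99 in heterozygotes (SE 0.25, adjusted p = 0.0162), where the call was lost without wild type 3 (adjusted p = 0.0589) or heterozygous 3 (0.0645).

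Ifi204, a DNA sensor gene of a cluster of close copies whose reads may not be separable, was at 1.23 in both (adjusted p = 0.0463 and 0.0399), and the calls were lost in 8 and 9 of 17 settings, without each wild-type and each homozygous library in homozygotes (0.0797 to 0.137). In heterozygotes they were lost without each library but heterozygous 3 and homozygous 3 (0.0509 to 0.129). Ddx58 (RIG-I) and Mavs, the sensor and adaptor beside MDA5, did not pass: Ddx58 was at 0.41 (SE 0.15, adjusted p = 0.0699) in homozygotes and Mavs at 0.17 (SE 0.13, adjusted p = 0.367).

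Of 15 tested genes listed as restraining nucleic acid sensing or interferon signalling, 5 rose and 4 fell in homozygotes, and 5 rose and 4 fell in heterozygotes (median 0.04 and 0.03). That is 60% in each, against 20.8% of all features in homozygotes (9.68% higher, 11.1% lower) and 23.9% in heterozygotes (11.1% higher, 12.9% lower). The list was chosen with earlier results known, and nothing particular to it was tested. It includes Prkra, which rose in both genotypes and encodes an activator of PKR, so not every gene in it restrains sensing. Skiv2l, the RNA helicase of the cytoplasmic exosome, fell from 141 to 165 CPM in wild type to 81.2 to 100 in heterozygotes and 87.8 to 109 in homozygotes (-0.69, adjusted p = 0.00313 and -0.59, adjusted p = 0.00581). Pnpt1, a mitochondrial RNase, rose from 29.2 to 31.2 CPM to 36.8 to 46.0 and 40.4 to 45.8 (0.46, adjusted p = 0.00898 and 0.53, adjusted p = 0.00546). The subunits of RNase H2, which cuts RNA in RNA-DNA hybrids, went different ways. Rnaseh2b rose from 4.96 to 5.50 CPM to 7.95 to 8.46 in heterozygotes and 6.98 to 10.0 in homozygotes (0.65, adjusted p = 0.00981 and 0.73, adjusted p = 0.00696). Rnaseh2c fell from 17.0 to 19.9 CPM to 9.35 to 14.1 and 9.41 to 13.4 (-0.68, adjusted p = 0.0146 and -0.76, adjusted p = 0.00999), and the heterozygous call was lost without wild type 1 (0.0528) or heterozygous 3 (0.0578). Rnaseh2a fell in heterozygotes (-0.36, adjusted p = 0.02; lost without wild type 1, 0.0539, or heterozygous 3, 0.058) and stood at -0.27 in homozygotes (adjusted p = 0.0608, and under 0.05 without heterozygous 1, 0.0376, or heterozygous 2, 0.0454).

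Prkra and Tarbp2 encode related double-stranded RNA-binding proteins, an activator and an inhibitor of PKR. Prkra rose by 0.36 in heterozygotes (adjusted p = 0.0145) and 0.41 in homozygotes (adjusted p = 0.00913). Tarbp2 fell in heterozygotes (-0.39, adjusted p = 0.021; lost without wild type 1, 0.0725, or heterozygous 3, 0.0794) and stood at -0.30 in homozygotes (adjusted p = 0.0572, and under 0.05 without heterozygous 2, 0.0458, heterozygous 3, 0.0427, or homozygous 1, 0.0454). Ptpn2, a phosphatase of JAK and STAT proteins, rose by 0.37 (adjusted p = 0.0102) and 0.43 (adjusted p = 0.00626). Socs1 and Socs3, feedback inhibitors of JAK kinases named here after their values were seen, fell in homozygotes. Socs1 stood at 3.21 to 3.50 CPM in wild type, 1.55 to 2.41 in heterozygotes and 1.57 to 2.44 in homozygotes (-0.80, SE 0.23, adjusted p = 0.0278 in homozygotes and -0.65, adjusted p = 0.0504 in heterozygotes). Socs3 stood at 1.09 to 1.26 CPM, then 0.825 to 0.969, then 0.460 to 0.847 (-0.84, SE 0.27, adjusted p = 0.0429 and -0.39, adjusted p = 0.278). Both mutant genotypes lay below wild type for both genes. The Socs1 call was lost in 6 of 17 settings (adjusted p up to 0.105), without any 1 wild-type library, homozygous 2 or homozygous 3, and with library size scaling. The Socs3 call was lost in 12 (up to 0.129), among them DESeq2 (0.0808) and each wild-type or homozygous library left out. The Skiv2l, Pnpt1 and Rnaseh2b calls held in all 17 other settings in both genotypes, and those of Prkra, Ptpn2 and Rnaseh2c in homozygotes.

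Among 46 further interferon-stimulated genes tested, 6 rose and 2 fell in homozygotes, and 6 rose and 3 fell in heterozygotes (median 0.19 and 0.14). That is 17.4% and 19.6%, near the 20.8% and 23.9% of all features. The 3 lower in heterozygotes and the 19.6% include H2-K1, whose counts are given below without a direction of expression. Ifi27l2a, a relative of the member Ifi27, stood at 1.05, 0.628 and 0.773 CPM in wild type, 2.43, 4.44 and 2.51 in heterozygotes, with 2.16, 4.09 and 3.04 in homozygotes. Every mutant library lay above wild type (1.91, SE 0.33, adjusted p = 0.00375 and 1.90, SE 0.33, adjusted p = 0.00399), whereas Ifi27 itself was at 0.24 and 0.20 with overlapping groups. Trim30a and Trim34a, TRIM genes of a cluster with close copies whose reads may not be separable, rose by 0.94 and 0.92 in heterozygotes (adjusted p = 0.00587 and 0.00727) and by 1.00 and 1.24 in homozygotes (adjusted p = 0.00489 and 0.00174). Trim34a stood at 1.15 to 1.20 CPM in wild type, 2.04 to 2.45 in heterozygotes and 2.55 to 3.04 in homozygotes. These 3 genes held their calls in all 17 other settings in both genotypes.

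Iigp1, a GTPase that attacks parasite vacuoles, rose by 0.86 in heterozygotes (adjusted p = 0.0174; lost without wild type 3, 0.0564, or heterozygous 2, 0.0535) and by 0.71 in homozygotes (adjusted p = 0.042; lost without each wild-type library, 0.0694 to 0.121, homozygous 1, 0.0865, or homozygous 3, 0.157). The MHC class I gene H2-K1 differs between mouse strains and its reads may be shared with other class I genes. Which strain's form each library carries at this locus was not tested, so the counts of H2-K1 are given without a direction of expression. Whether strain background differs between wild-type and mutant libraries at other genes was not tested either. This limit holds for every comparison with wild type in this report. H2-K1 was counted at 29.6, 29.3 and 30.9 CPM in wild type, 5.58, 7.12 and 5.81 in heterozygotes, with 5.63, 29.4 and 6.54 in homozygotes. The libraries thus stood near 1 of 2 levels, and homozygous 2 alone of the mutant libraries was at the wild-type one. The log2 difference in counts from wild type was -2.28 (SE 0.48, adjusted p = 0.00782) in heterozygotes. In homozygotes it was -1.11 (adjusted p = 0.101, and 0.00614 with no filter on low counts), and without homozygous 2 it was -2.30 (adjusted p = 1.1e-05). Znfx1 and Tapbp fell in heterozygotes (-0.41, adjusted p = 0.0207 and -0.51, adjusted p = 0.0215) and in homozygotes (-0.33, adjusted p = 0.0499 and -0.47, adjusted p = 0.0353). In heterozygotes both calls were lost without wild type 1 (0.076 and 0.0863) or heterozygous 3 (0.0689 and 0.0858), and that of Znfx1 without heterozygous 1 (0.0543). In homozygotes the Tapbp call was lost without wild type 1 (0.128), wild type 3 (0.0508), homozygous 2 (0.0837) or homozygous 3 (0.139), and that of Znfx1 without any library but heterozygous 1 (0.0515 to 0.188). With both strands summed the Tapbp calls were lost (0.0932 in homozygotes and 0.0881 in heterozygotes), and so was the homozygous call of Znfx1 (0.058), which was lost with 3 other settings as well. No listed pathway gene passed between homozygotes and heterozygotes, and 25.5% of the Tapbp body overlaps another gene.

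**Figure D5:**
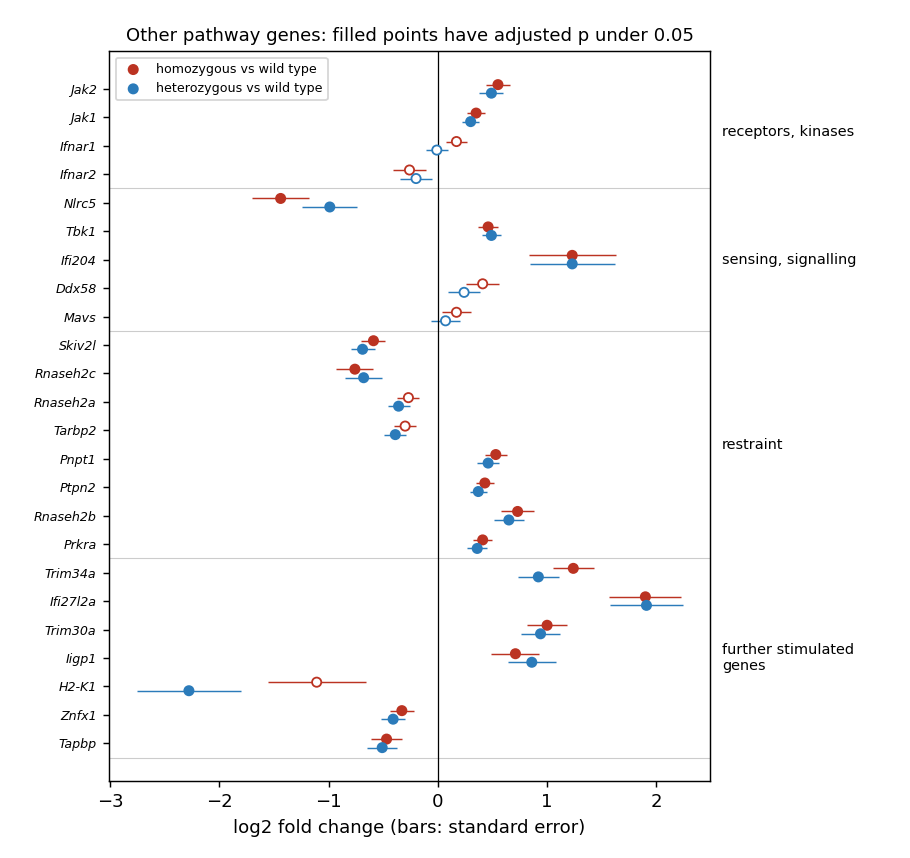
Log2 fold change of 24 named pathway genes outside the module (horizontal axis, bars are the standard error) for homozygotes and heterozygotes against the same wild-type libraries; filled points have an adjusted p under 0.05. Ifi27l2a lies furthest to the right at 1.90 and 1.91, and the counts of H2-K1, a gene that differs between strains, furthest to the left at -2.28 in heterozygotes.

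Immune cells respond strongly to interferon in other tissues, so their markers were read in the same libraries. Summed CPM of 16 macrophage markers was 382 to 414 in wild type, 325 to 379 in heterozygotes and 315 to 357 in homozygotes, so both mutant genotypes lay below wild type; Itgam was at 0 under an overlapping gene. Aif1, a macrophage marker, made up 38.3 to 54.6% of this sum, and without it the ranges were 188 to 216, 188 to 205 and 172 to 211 CPM, which overlap. Of 15 macrophage markers tested, 1 rose and 2 fell in each mutant genotype (20%, against 20.8% of all features in homozygotes and 23.9% in heterozygotes). The 1 that rose was Lyz2, the lysozyme gene of myeloid cells (0.44, adjusted p = 0.0304 in homozygotes and 0.56, adjusted p = 0.00992 in heterozygotes), and those that fell were Aif1 (-0.48, adjusted p = 0.03 and -0.44, adjusted p = 0.0376) and the complement gene C1qb (-0.80, adjusted p = 0.00581 and -0.57, adjusted p = 0.019). Single libraries left out ended the Aif1 calls in both genotypes (adjusted p up to 0.0983 and 0.12), the Lyz2 call in homozygotes (up to 0.117) and the C1qb call in heterozygotes (up to 0.0797). Summed lymphocyte markers were 7.83 to 12.2, 5.56 to 12.6 and 7.12 to 8.71 CPM (11 genes, with 56.4 to 80.7% from Cd3d), and summed plasmacytoid and dendritic cell markers 3.96 to 5.36, 4.04 to 5.71 and 4.30 to 6.16 CPM (6 genes, with 62.0 to 79.9% from Flt3), so these 2 sums rest mostly on 1 gene each. Of spermatocyte markers, 5 of 10 rose and none fell in homozygotes, against 9.68% of all features higher, and 4 rose and 1 fell in heterozygotes, against 11.1% higher. Of elongating spermatid markers, 5 of 10 fell in homozygotes and 6 in heterozygotes, and of Leydig markers 5 of 6 tested fell in each, against 11.1% and 12.9% of all features lower; none of these rose. The part of these shifts in the members' differences was not tested.

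Small RNA reads over the members were rare. The 6 libraries held 939641 to 1861402 counts over genes, 7807486 in all, and the 39 members took 312 of them (0.004%). A read was found for 24 members and none for 15, among them Ifih1, Usp18 and Ifi44, where 0 allows up to 0.384 CPM (3 reads, counting error only). Adar had the most, 81 reads, with 15, 11 and 16 in heterozygotes, with 19, 9 and 11 in homozygotes. Trim25 had 10, 11 and 13 in heterozygotes, with 17, 9 and 6 in homozygotes. Only these 2 passed the low-count filter, and their groups overlapped (log2 fold change -0.05, adjusted p = 0.982 and -0.06, adjusted p = 0.968), against 0.0279% of features called (1 of 3581, and 8.71% at an unadjusted p under 0.05). Dhx58 had 3, 3 and 1 reads in heterozygotes, with 5, 3 and 9 in homozygotes. At this depth no difference in small RNA could be detected for the other 37 members.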

How the data were processed

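The authors deposited raw counts per feature, not normalized. Per the file headers, featureCounts 1.6.2 counted properly paired RNA-seq fragments over whole genes of GENCODE M12 and 466 piRNA precursors, by strand, and featureCounts 1.6.1 counted small RNA over exons. The submitters' processing notes name HISAT2 2.1.0, cutadapt 1.18 and the mm10 and mm9 builds. Counts of the kit strand were fitted with edgeR 4.0.16 (R 4.3.3): filterByExpr by group, TMM, all 9 libraries in 1 fit, quasi-likelihood test, Benjamini-Hochberg adjustment over 20782 features, threshold 0.05. Adjusted p-values are from edgeR, with DESeq2 1.42.0 as an alternative. The code was tested on simulated data. RNA-seq replicate numbers follow sample order and pair nothing. Promoter letters were read from the RefSeq table.

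The members and lists were chosen with earlier results of these data known. All members are accounted for. Those that passed and the RNA sensors are given in full, others by range with at most 3 examples a role, and pathway genes that passed by lowest p, at most 4 per list and direction, plus Ddx58, Mavs, Ifnar1 and Ifnar2. A further listed pathway gene is not reported here and was left out of the list counts. Alternatives were DESeq2, RLE or library size scaling, other filters, both strands summed, the 2 groups alone and each library left out. Leaving out wild type 1 and heterozygous 1 together was chosen after seeing the data. Some members and ligands with few counts, Socs1, Socs3 and a few markers were named outside this rule, after their values were seen.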

Additional observations from a re-analysis of the deposited data

How the results depend on the processing

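No member was called between homozygotes and heterozygotes in any of 17 settings, in which 4 to 18 of all features were called. For homozygotes against wild type the 5 calls became 1 to 6 with a library left out (1, Dhx58, without homozygous 2) and 3 without wild type 1 and heterozygous 1. Over all features, the 4319 homozygous calls became 1805 to 4737 with a library left out (1899 without homozygous 2). They were 3897 without wild type 1 and heterozygous 1. For heterozygotes against wild type the 2 calls became 1 to 3 with a library left out, 1 at a mean of at least 1 CPM and 1 without those 2 libraries. Ifi44 is 1 of these 2 calls, and its call is no support. Over all features, the 4977 heterozygous calls became 2432 to 4720 with a library left out. They were 4929 at a mean of at least 1 CPM and 2722 without wild type 1 and heterozygous 1. Without those 2 libraries the homozygous calls of Usp18 (adjusted p = 0.051) and Herc6 (0.0883) and the heterozygous calls of Ifi44 (0.0756), Jak2 (0.0594), Ptpn2 (0.0527) and Prkra (0.077) were among those lost, by edgeR. Library size scaling and both strands summed each left 4 members called in homozygotes against wild type, and the 2 groups alone gave 7. In that order, these settings called 3913, 4670 and 4974 of all features. Library size scaling ended the homozygous calls of Herc6, Ifi204 (both 0.0544), Znfx1 (0.0689), Socs1 (0.0531), Socs3 (0.0626) and Aif1 (0.0793) and the heterozygous calls of Rnaseh2a (0.0651), Tarbp2 (0.0763) and Aif1 (0.138). The homozygous Znfx1 call was lost with RLE scaling (0.0574) and the 2 groups alone (0.0578) too. The direction of every member and pathway gene that was called was kept. In small RNA the 1 feature called became 0 to 617 with a library left out (617 without small RNA heterozygous 1), 43 with no filter and 0 with the replicate block, and no member was called in any of these. Same-numbered small RNA libraries did not deviate together (r of -0.16, 0 and -0.09), so the numbers were not taken to pair samples. The interferon letters gave 37.9% of members, 51.7% with the looser form and 27.6% with TTCNNNGAA. Depth limits Isg15, Oas1a, Oas3 and Ifit3b, which had at most 15 counts per library.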
